A study of Mus musculus with 24 samples.

Results

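Mitosis genes were described in RNA-seq data from sorted alveolar macrophages, the phagocytes of the airspaces, of C57BL/6J mice. They were 40 genes of the G2 and M phases, the spindle, the kinetochore and cytokinesis, taken by symbol from a table of counts for 43430 mouse gene IDs. The rule for the list named genes by function and used no measured value, but it was written with earlier results of these data known. All 40 were found in the table, and all 40 passed the filter on low counts. The 24 libraries formed 6 groups of 4. Young naive and old naive Siglec F-high cells came from mice without asbestos. Young and old asbestos Siglec F-high cells, and young and old asbestos Siglec F-low cells, came from mice 28 days after asbestos. Young mice were 8 to 12 weeks old and old mice more than 18 months. The labels named no allele or transgene in any group. Siglec F is a surface receptor of resident alveolar macrophages, and the labels named the sorts by it alone. The labels did not say whether a library held the cells of 1 animal or of several, so the p-values below measure the spread between these libraries.

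The genes encode the machinery that divides a cell. Cyclin B bound to the kinase Cdk1 starts mitosis, Polo and Aurora kinases build the spindle, kinesin motors and kinetochores move the chromosomes, and the anaphase-promoting complex ends the phase by marking cyclins for destruction. The genes are transcribed in G2 and M, when the MuvB core bound to B-Myb and FoxM1 acts on a cell cycle homology element near their starts. They are repressed in resting cells, when MuvB belongs to the DREAM complex. CCAAT boxes, also read below, are a separate motif. Resident alveolar macrophages are among the tissue macrophages that can maintain their numbers by local division, and a small share of them is in cycle in the healthy lung.

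Promoter stretches are shown first because the members share letters there that had no part in choosing the list. Windows from 250 bases before to 50 after the transcription start were found in RefSeq (GRCm38.p6) for 34 of the 40 members, and 2 of those had 2 windows. The letters TTTGAA, which are one form of the cell cycle homology element, and CCAAT were searched on both strands, where they read TTCAAA and ATTGG in reverse. Matches of the 2 motifs did not overlap in the stretches printed here. TTTGAA lay in the windows of 28 of the 34 members (82.4%), in those of 20.2% of all 27025 genes with a window, and in those of 14.4% of the 10001 tested genes with one. CCAAT lay in 26 of the 34 (76.5%), against 41.1% of all genes and 42.8% of those tested. Both motifs were found in 23 members (67.6%), against 8.97% and 6.97%. A match is a description of letters and does not show that a factor binds there.

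The 120 bases that end just before the start are printed for 6 members, with capitals on TTTGAA or TTCAAA and on CCAAT or ATTGG. They were chosen to show the element next to the start (Cdk1, Top2a, Cdc20 and Kif11), far from it (Mki67) and missing from the stretch (Ccnb2).
Cdk1 (chr10:69352913-69353032, minus strand): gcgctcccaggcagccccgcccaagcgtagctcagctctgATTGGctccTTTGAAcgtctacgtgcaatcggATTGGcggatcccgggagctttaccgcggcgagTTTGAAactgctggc
Top2a (chr11:99024190-99024309, minus strand): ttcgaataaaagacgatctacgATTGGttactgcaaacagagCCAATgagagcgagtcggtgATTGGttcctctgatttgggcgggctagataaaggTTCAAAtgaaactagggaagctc
Cdc20 (chr4:118437344-118437463, minus strand): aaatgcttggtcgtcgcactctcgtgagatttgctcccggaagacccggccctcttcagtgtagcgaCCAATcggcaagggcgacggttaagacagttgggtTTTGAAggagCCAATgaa
Kif11 (chr19:37376262-37376381, plus strand): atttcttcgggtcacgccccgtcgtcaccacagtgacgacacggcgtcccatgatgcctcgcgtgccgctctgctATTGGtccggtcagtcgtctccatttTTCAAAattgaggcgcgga
Mki67 (chr7:135716380-135716499, minus strand): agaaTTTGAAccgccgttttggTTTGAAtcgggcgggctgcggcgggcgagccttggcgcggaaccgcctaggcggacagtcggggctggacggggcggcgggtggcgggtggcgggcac
Ccnb2 (chr9:70421555-70421674, minus strand): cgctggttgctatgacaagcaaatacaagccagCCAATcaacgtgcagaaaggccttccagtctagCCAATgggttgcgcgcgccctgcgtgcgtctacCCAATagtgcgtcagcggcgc
With the start base counted as 0, the element of Top2a began at -23, that of Cdc20 at -18, that of Kif11 at -19 and the nearer one of Cdk1 at -15. The 3 CCAAT boxes of Ccnb2 began at -87, -54 and -21, and its own TTTGAA matches lay outside the printed stretch, at -167 and 4.

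The position of TTTGAA was narrower in the members than in the table. It began between 25 bases before and 49 bases after the start in 25 of the 34 members (73.5%), against 4.17% of all genes and 2.82% of tested genes. The bin of the first 25 bases from the start held it in 35.3% of members and 1.31% of all windows. No TTTGAA was found in the windows of Ccnb1, Birc5, Bub1, Cenpe, Nuf2 and Nusap1, which says only that these letters are not there.

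**Figure D1:**
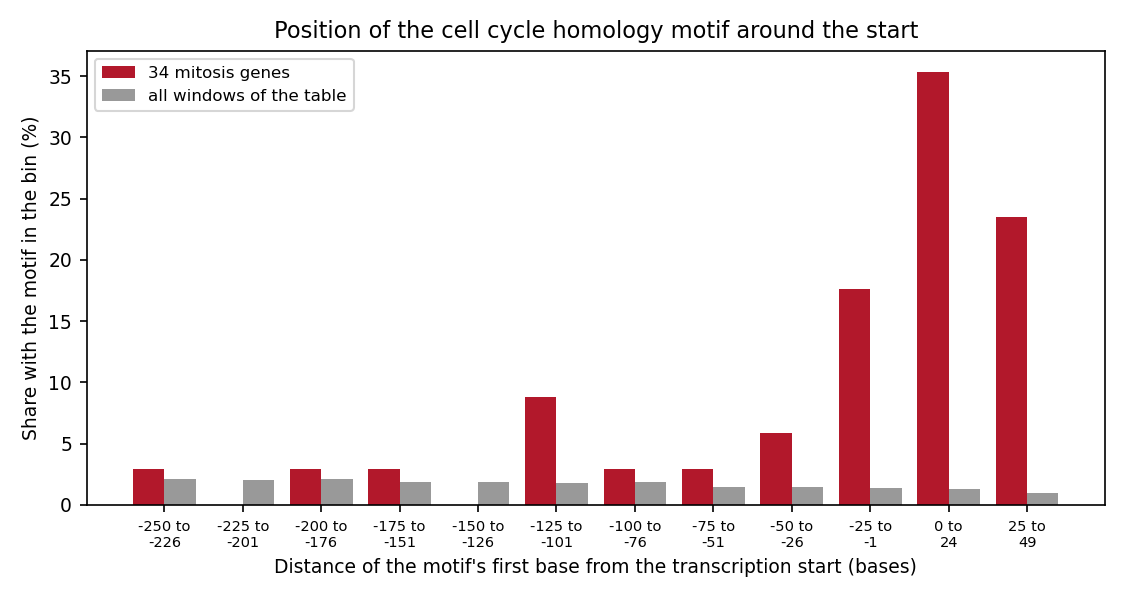
Share of promoter windows in which TTTGAA (either strand) begins in each bin of 25 bases, for the 34 mitosis genes with a window (red) and for all windows of the RefSeq table (grey); the x axis gives the distance from the transcription start in bases and the y axis the share in percent. The red bars stand highest from the start to 24 bases after it (35.3%), from 25 to 49 bases (23.5%) and in the 25 bases before the start (17.6%), where the grey bars lie between 0.971 and 1.38%.

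In 22 libraries the totals were 13423080 to 18124526 counts, with 9566 to 24463 counts on the 40 members. The third library of the old asbestos Siglec F-high group (replicate 3) was shallow, at 3894699 counts, of which rRNA-related genes took 53.8% (0.195 to 0.538% in the 22). Its members had 1042 counts in all, and 28 of them had 10 or more. The third library of the young asbestos Siglec F-high group (replicate 3) had 11889517 counts spread over 12528 genes, and its log2 CPM correlated with the rest of its group at 0.865 (0.971 to 0.993 in the 22). CPM are counts in every 1000000 of the library size, scaled with TMM factors. In the young outlying library 17 members were above, 5 within and 18 below the range of the other 3 libraries of its group, from 0.125 times their mean (Foxm1) to 6.11 times (Ube2c). In the old one 14 were above, 6 within and 20 below, from 0.294 times (Ube2c) to 2.25 times (Mki67). Counts of called genes are therefore given for all 24 libraries and for the 22 without these.

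All 9 macrophage markers were detected in every group and summed to 22850 to 38840 CPM in the 22 libraries. Neutrophil markers summed to 57.2 to 108 CPM, with Ly6g at 0 or near it, and erythroid markers to at most 4.46 CPM. B and plasma cell markers summed to 181 to 222 CPM, most of it Cd22, and T and NK cell markers to 254 to 386 CPM, most of it Cd2.

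The members stood at low to moderate levels. Per kilobase of exon, in the 22 libraries, the highest mean levels were those of Bub1b (20.2 CPM per kb), Ccnb2 (16.7), Mki67 (11.9), Top2a (9.09), Cdc20 (7.58) and Tpx2 (7.38). The lowest were those of Ttk (0.929), Cenpf (1.03) and Kif15 (1.22). Bub1b encodes a checkpoint kinase that holds back anaphase, and it headed this order although it was also among the members that varied least with age. Exons of 12 members share bases with another gene, 10 of them with a gene of the opposite strand, among them Ccna2, Cdc20 and Prc1, and 2, Top2a and Foxm1, only with genes of the same strand. The strand setting of the counting was not given in the sources used here, so reads of those stretches cannot be assigned to one gene.

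Summed over the 40 genes, the mean level was highest in young cells after asbestos and, with TMM scaling, lowest in old naive cells. It was 925 ± 65.5 CPM (SD, n = 4) in young naive, 1196 ± 101 in young asbestos Siglec F-high and 1155 ± 86.6 in young asbestos Siglec F-low libraries. In old cells it was 667 ± 23.1, 793 ± 39.2 and 711 ± 90.7 CPM in the same order. The 12 young libraries lay between 870 and 1311 CPM and the 12 old ones between 624 and 851, so the ages did not overlap in any state or across states. Old cells held 72.2% of the young level when naive, 66.3% in the Siglec F-high sort after asbestos and 61.5% in the Siglec F-low sort (72.2%, 65.6% and 61.5% with 22 libraries). The highest old value, 851 CPM, was that of the outlying old library, which held 268 CPM without TMM scaling. Without that scaling the mean was 729 CPM in old naive, 669 in old asbestos Siglec F-high and 716 in old asbestos Siglec F-low libraries, so old naive cells were then not the lowest. In bulk libraries, fewer dividing cells and less of these RNAs per dividing cell cannot be told apart.

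**Figure D2:**
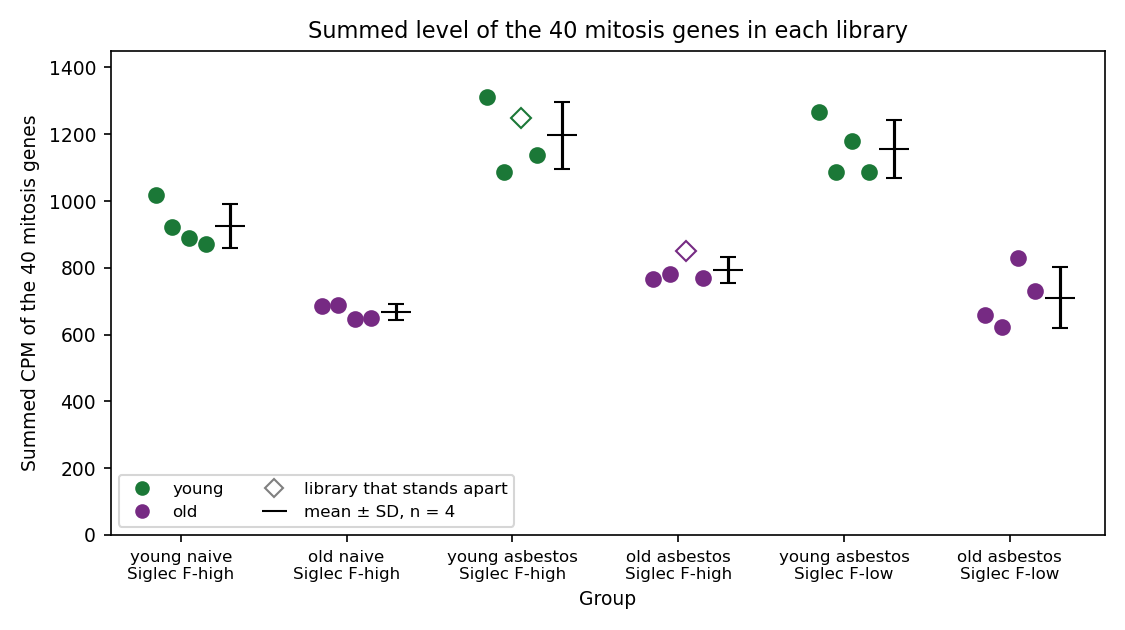
Summed TMM-scaled CPM of the 40 mitosis genes (y axis, from 0) in each library of the 6 groups (x axis), with young in green, old in purple, the libraries that stand apart as open diamonds, and the mean ± SD of 4 libraries in black. All 12 young points lie at 870 CPM or above and all 12 old points at 851 CPM or below.

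The members varied together across libraries. The log2 CPM of a member correlated with the median of the other members at a median Pearson coefficient of 0.901 over the 22 libraries (0.469 to 0.967), and 37 of 40 members were above 0.8. With 24 libraries the median was 0.776, and 16 members were above 0.8. Within groups, after the group means were removed, the median was 0.641 with 22 libraries and 0.382 with 24. The lowest coefficients with 22 libraries were those of Anln (0.469), Bub1b (0.674) and Kif23 (0.697). These are descriptions, and the libraries share depth, age and sort.

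**Figure D3:**
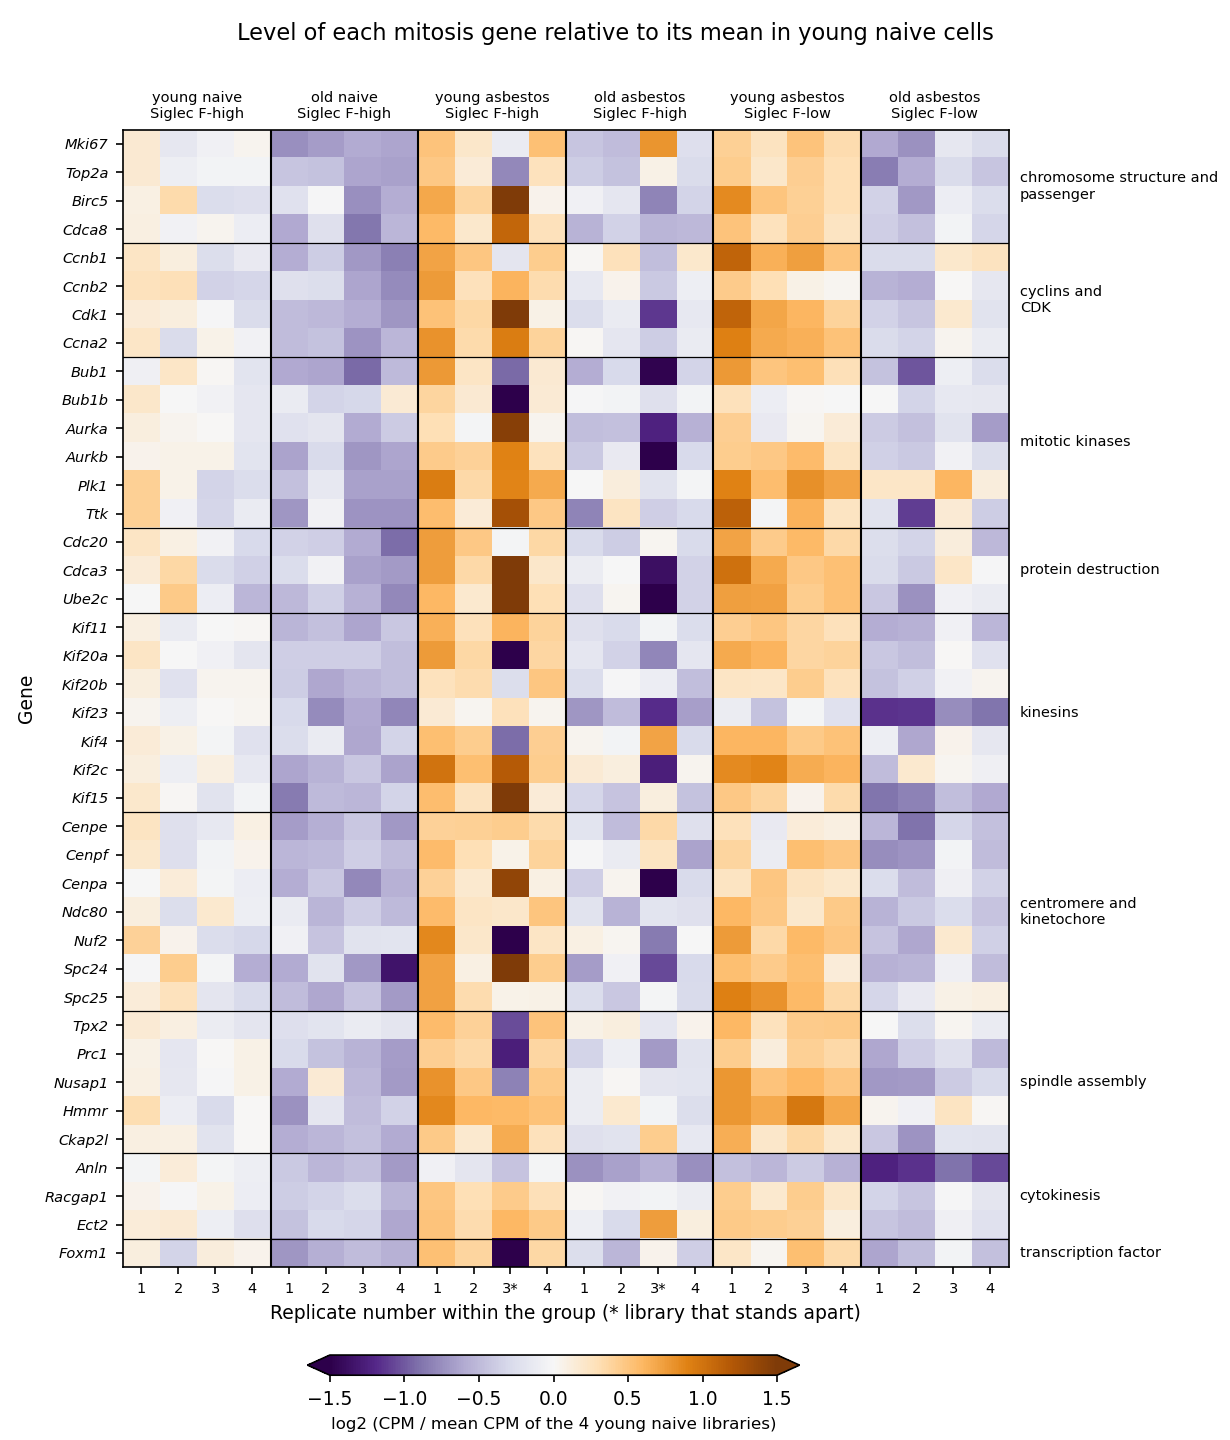
Level of each of the 40 mitosis genes (y axis, grouped by role) in each of the 24 libraries (x axis, replicate numbers within the 6 groups, an asterisk on the libraries that stand apart), as log2 of CPM over the mean of the 4 young naive libraries, purple below and orange above. The old groups are purple for nearly all genes, the young asbestos groups mostly orange, and the 2 marked columns mix strong colours of both kinds.

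Age was compared in 3 states, old against young in naive Siglec F-high, asbestos Siglec F-high and asbestos Siglec F-low cells. All 40 members had a log2 fold change below 0 in each of the 3 states, with 24 libraries and with 22, which 21.1% and 24.1% of all tested genes did. The median member differed by -0.52, -0.65 and -0.76 (log2), a ratio of 0.698, 0.639 and 0.59, with 24 libraries, and by -0.51, -0.61 and -0.75 with 22. The median of all genes tested lay between -0.01 and 0.04. In naive cells edgeR called 5 of the 40 lower and 0 higher at an adjusted p under 0.05 with 24 libraries, where it called 0.349% of all genes lower, and 24 lower and 0 higher with 22, where it called 2.91% lower. In the asbestos Siglec F-high sort it called 21 lower (background 1.87%) with 24 libraries and 30 (2.47%) with 22. It called 0 when only the 8 libraries compared were fitted, but the share of all genes called is not given for that fit. In the Siglec F-low sort it called 17 lower (0.423%) and 36 (3.41%). No member was called higher in old cells, while 1.68%, 2.89% and 0.869% of all genes were in the 3 states with 24 libraries and 5.11%, 4.84% and 3.80% with 22.

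The libraries of young and old mice did not overlap, with old lower, for 26, 21 and 36 members in the 3 states with 24 libraries, against 5.0%, 3.78% and 6.56% of all genes. With 22 libraries this was 26, 39 and 36 members, against 4.81%, 12.3% and 6.23%. For 13 members the old libraries lay below the young in all 3 states (0.438% of all genes), and for 25 without the outlying libraries (1.10%). With 24 libraries 5 members, Ccna2, Kif11, Kif23, Cenpe and Anln, were called lower in all 3 states (0.0743% of all genes), 6 in 2 states, 16 in 1 and 13 in none. With 22 libraries 22 were called in all 3 (0.770%), 9 in 2, 6 in 1 and 3 (Ccnb2, Bub1b and Ttk) in none. For Aurka the lowest young library of any state lay above the highest old library of any state with 24 libraries (0.111% of all genes), and for Top2a, Aurka and Kif15 with 22 (0.235%).

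The number called in naive cells was sensitive to single libraries, though the share of all genes called is not given for these fits. It was 1 without young naive replicate 1, 3 or 4, 2 without any 1 of the 4 old naive libraries, 3 without young asbestos Siglec F-low replicate 3, 8 without the outlying old library and 22 without the outlying young one. In the asbestos Siglec F-high sort it was 12 without old replicate 1 and 8 without old replicate 4. In the Siglec F-low sort it was 7 without young replicate 1, old replicate 1 or old replicate 2, 9 without young replicate 3, 10 without old replicate 4 and 36 without the outlying young library. With any 1 library left out, 40 members stayed below 0 in naive and in Siglec F-low cells, and 38 to 40 in the asbestos Siglec F-high sort. Of 49 differences called with 24 libraries in the 7 comparisons of groups, 14 were called whichever library was left out, all of them between ages. These were Anln in naive cells, Ccna2, Aurka, Aurkb, Kif11, Kif23, Anln and Cdca8 in the asbestos Siglec F-high sort, and Ccna2, Kif11, Kif23, Ndc80, Anln and Racgap1 in the Siglec F-low sort.

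**Figure D4:**
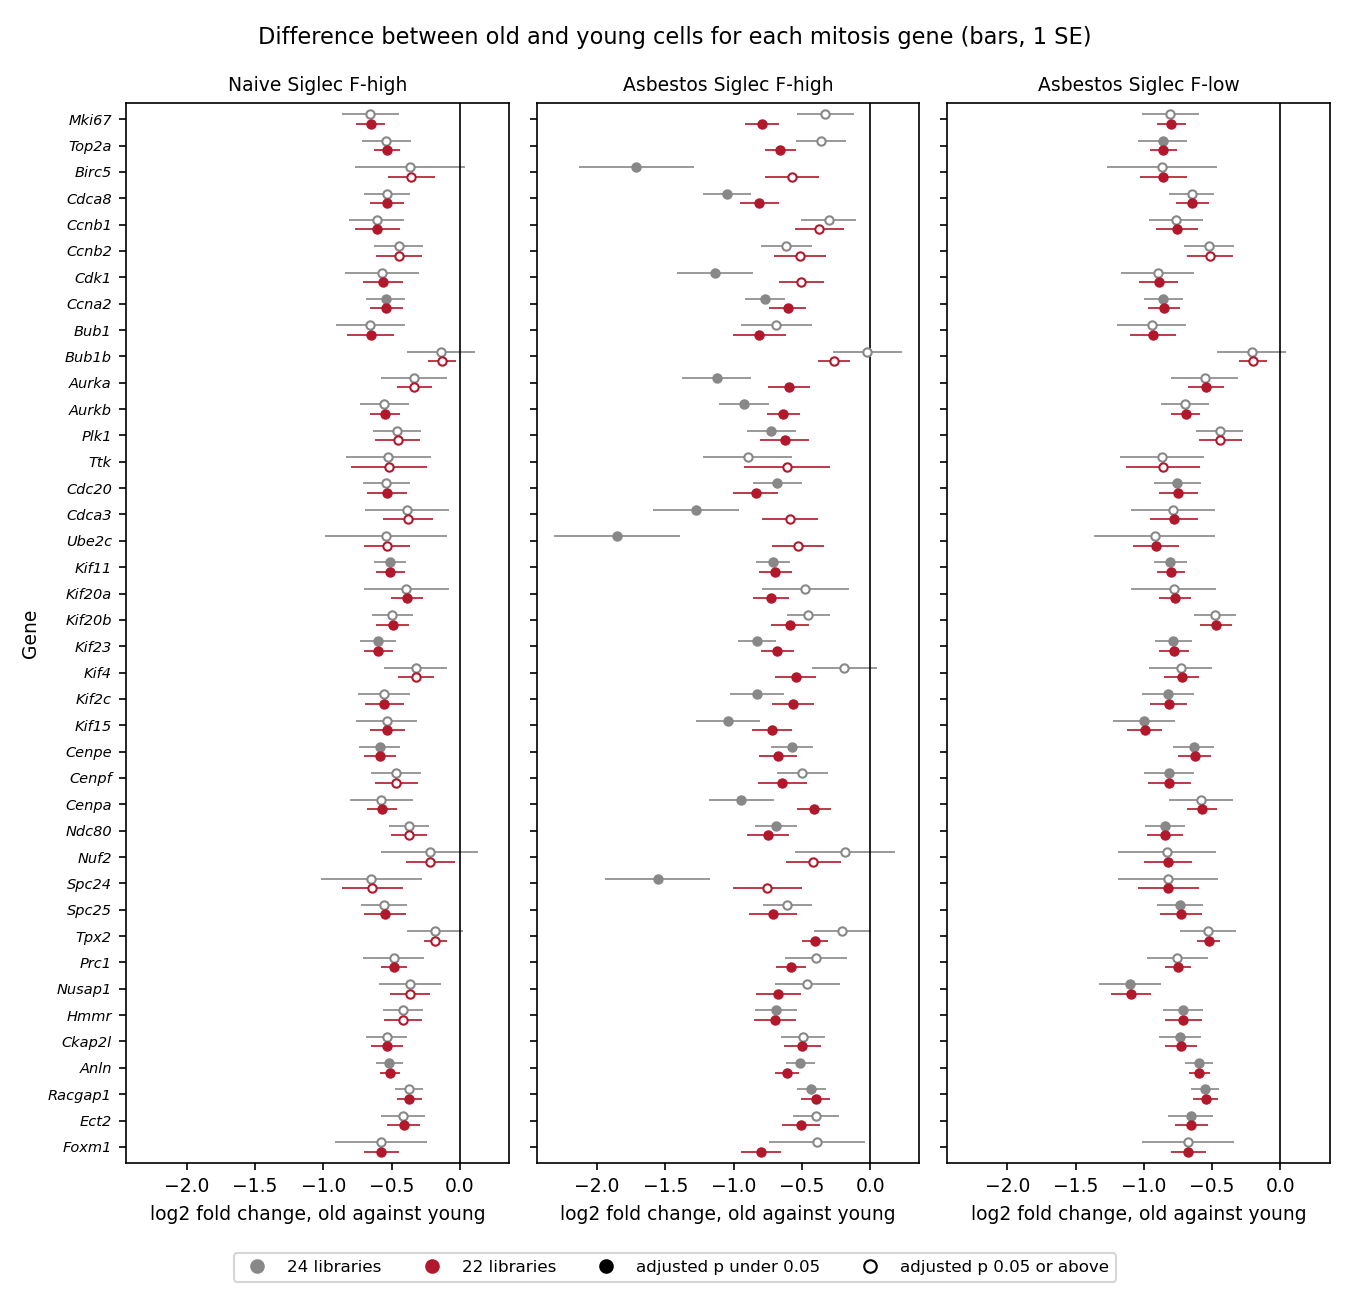
Log2 fold change of each mitosis gene (y axis), old against young, in the 3 states (panels), with bars of 1 SE, from 24 libraries (grey) and 22 libraries (red); filled points have an edgeR adjusted p under 0.05. All points lie below 0, the naive medians are -0.52 and -0.51, and in the asbestos Siglec F-high panel Ube2c, Birc5, Spc24 and Cdca3 move toward 0 when the outlying libraries are left out.

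Values of single genes are CPM of replicates 1 to 4, in that order. The group of chromosome structure and passenger genes held Mki67, Top2a, Birc5 and Cdca8, and 0, 2 and 1 of the 4 were called lower in the 3 states with 24 libraries, 3, 3 and 4 with 22. Mki67 encodes Ki-67, which coats mitotic chromosomes and is the usual stain for cycling cells. In young libraries Mki67 was at 132, 105, 112 and 120.5 CPM when naive, 167, 135, 108 and 169.5 in the asbestos Siglec F-high sort and 157, 139, 167 and 147 in the Siglec F-low sort. In old libraries Mki67 was at 69.8, 73.6, 78 and 75.6, 87.3, 83.7, 203 and 99.3 and 77.1, 70.4, 105 and 96.4 CPM. The ages were apart in naive and Siglec F-low cells, while in the Siglec F-high sort the outlying old library was the highest of the 8. Its log2 fold change in that sort was -0.33 ± 0.21 (SE, edgeR adjusted p = 0.323) with 24 libraries and -0.79 ± 0.12 (SE, edgeR adjusted p = 0.00025) with 22. In naive cells the log2 fold change was -0.66 ± 0.21 (SE, edgeR adjusted p = 0.142) with 24 and -0.65 ± 0.11 (SE, edgeR adjusted p = 0.000291) with 22.

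Top2a encodes the topoisomerase that untangles sister chromatids. Young libraries held 91.7, 76.7, 79.5 and 79.3 CPM of Top2a when naive, 113, 90.9, 47.6 and 98 in the asbestos Siglec F-high and 111, 94.6, 110.2 and 101 in the Siglec F-low sort. Old libraries held 60.8, 59.6, 52.8 and 52.3, 62.6, 60.05, 86.6 and 67.5 and 45.9, 54.8, 67.5 and 61 CPM. The groups overlapped only in the Siglec F-high sort, where the outlying young library was the lowest and the outlying old one the highest of its group. Top2a fell in Siglec F-low cells, by a log2 fold change of -0.86 ± 0.18 (SE, edgeR adjusted p = 0.0144). Cdca8 (Borealin) and Birc5 (Survivin) belong with Aurkb to the chromosomal passenger complex. Cdca8 was at 21.2, 16.2, 30.4 and 17.2 CPM in young and 9.70, 11.1, 9.80 and 9.97 in old asbestos Siglec F-high libraries, which did not overlap, and fell, with a log2 fold change of -1.05 ± 0.18 (SE, edgeR adjusted p = 0.000933) and -0.81 ± 0.14 (SE, edgeR adjusted p = 0.000872) with 22 libraries. Birc5 was called in that sort with 24 libraries but not with 22, and its log2 fold changes were -1.71 ± 0.42 (SE, edgeR adjusted p = 0.0219) and -0.57 ± 0.20 (SE, edgeR adjusted p = 0.0838).

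Of the 4 cyclin and CDK genes, 1, 2 and 1 were called lower in the 3 states with 24 libraries, and 3, 1 and 3 with 22. Ccna2 (ENSMUSG00000027715, chromosome 3, 36564865 to 36572150), cyclin A, acts in S phase and at entry into mitosis. In young libraries Ccna2 was at 24.8, 17.7, 22.3 and 20.5 CPM when naive, 37.1, 26.8, 40.7 and 28.1 in the asbestos Siglec F-high and 40.1, 34, 33.3 and 30.5 in the Siglec F-low sort. Old libraries held 15.3, 15.5, 13 and 14.9, 21.5, 19, 16.3 and 19.6 and 17.7, 16.9, 21.9 and 19.6 CPM of it. The ages did not overlap in any state, the outlying libraries included. Ccna2 fell with age, with a log2 fold change of -0.54 ± 0.14 (SE, edgeR adjusted p = 0.0496) in naive cells, of -0.77 ± 0.15 (SE, edgeR adjusted p = 0.0034) in the asbestos Siglec F-high sort and of -0.86 ± 0.14 (SE, edgeR adjusted p = 0.00203) in the Siglec F-low sort.

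Ccnb1 and Ccnb2 encode the B cyclins and Cdk1 their kinase. Ccnb1 was at 7.98, 7.32, 5.73 and 6.18 CPM in young naive and 4.55, 5.22, 4.2 and 3.85 in old naive libraries. After asbestos it was at 11.1, 9.49, 5.99 and 9.23 in young and 6.87, 8.26, 4.90 and 7.79 in old Siglec F-high libraries, and at 14.6, 10.6, 11.3 and 9.59 in young and 5.62, 5.61, 7.76 and 8.09 in old Siglec F-low libraries. The ages were apart in naive and Siglec F-low cells and overlapped in the Siglec F-high sort, through the outlying young library. In naive cells its log2 fold change was -0.61 ± 0.20 (SE, edgeR adjusted p = 0.168) with 24 libraries, where it was not called, and -0.60 ± 0.16 (SE, edgeR adjusted p = 0.0218) with 22, where it was. Cdk1 was at 19.8, 19.3, 17.7 and 14.7 CPM in young naive, 25.7, 22.8, 62 and 18.9 in young asbestos Siglec F-high and 38.5, 28.9, 27.2 and 23.4 in young asbestos Siglec F-low libraries. The old values of Cdk1 were 12.8, 12.6, 12 and 10.9, 14.8, 16.4, 8.17 and 16.1 and 14.1, 13.3, 20.3 and 15.5 CPM, below the young in each state, and the outlying young library alone stood at 62.0. In the asbestos Siglec F-high sort its log2 fold change was -1.13 ± 0.28 (SE, edgeR adjusted p = 0.0219) with 24 libraries and -0.50 ± 0.17 (SE, edgeR adjusted p = 0.0684) with 22. EdgeR called Ccnb2 in no state in either fit, although its ages did not overlap in the 2 asbestos sorts. Its log2 fold change was -0.45, -0.61 and -0.52 in the 3 states with 24 libraries (edgeR adjusted p = 0.369, 0.0566 and 0.25) and -0.44, -0.51 and -0.52 with 22 (edgeR adjusted p = 0.119, 0.114 and 0.065).

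Of the 6 mitotic kinases, 0, 3 and 0 were called lower in the 3 states with 24 libraries, and 2, 4 and 3 with 22. Aurkb is the kinase of the passenger complex, which corrects the attachment of chromosomes to the spindle. It was at 18.8, 19, 18.9 and 15.8 CPM in young naive, 24.8, 24, 33.7 and 21.8 in young asbestos Siglec F-high and 24.5, 25.3, 26.9 and 21.4 in young asbestos Siglec F-low libraries. Its old values were 11.7, 14.9, 11.1 and 11.8, 13.7, 16.5, 5.72 and 14.8 and 14.1, 13.7, 17.4 and 15.2 CPM. No old library of Aurkb reached a young one of its state, and the outlying libraries held the highest young and the lowest old value. Aurkb fell in the asbestos Siglec F-high sort, with a log2 fold change of -0.93 ± 0.18 (SE, edgeR adjusted p = 0.00458), and of -0.64 ± 0.12 (SE, edgeR adjusted p = 0.00189) with 22 libraries. Aurka, which builds the spindle poles, was at 10.4, 9.87, 9.67 and 8.51, 11.8, 9.39, 26.1 and 9.92 and 12.9, 8.78, 9.80 and 10.7 CPM in the young groups in the same order and at 8.28, 8.47, 6.35 and 7.34, 6.93, 6.97, 4.08 and 6.55 and 7.30, 6.98, 8.37 and 6.02 in the old ones. The lowest young library of Aurka lay above the highest old one, and its call in the asbestos Siglec F-high sort was at a log2 fold change of -1.12 ± 0.25 (SE, edgeR adjusted p = 0.0135). With 22 libraries, without the outlying young one at 26.1 CPM, this was -0.59 ± 0.15 (SE, edgeR adjusted p = 0.0185).

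Plk1, the Polo kinase that drives entry into and exit from mitosis, was at 15.1, 11.8, 8.99 and 9.43 CPM in young naive and 8.22, 10.3, 7.24 and 7.22 in old naive libraries, which overlapped. After asbestos Plk1 was at 21.6, 14.4, 20.9 and 18.1 in young and 11.3, 12.4, 9.80 and 11.1 in old Siglec F-high libraries, which did not overlap, and at 21.2, 16.7, 19.9 and 18.5 and 13.2, 13.2, 17.3 and 12.3 in the Siglec F-low sort, which did. It fell in the Siglec F-high sort, with a log2 fold change of -0.72 ± 0.18 (SE, edgeR adjusted p = 0.0217). Bub1b, the checkpoint kinase BubR1, was the member that moved least with age. Young libraries held 93.5, 80.8, 78.6 and 72.6 CPM of Bub1b when naive, 106, 91.8, 24.8 and 90.5 in the asbestos Siglec F-high and 98.5, 75.9, 82.5 and 81.1 in the Siglec F-low sort. Old libraries held 74.8, 64.8, 65.5 and 90.9, 80.1, 79.2, 69.4 and 79 and 80.7, 64.6, 73.8 and 72.9 CPM, which overlapped with the young in all 3 states. Its log2 fold changes with 22 libraries were -0.13 ± 0.10, -0.26 ± 0.12 and -0.20 ± 0.10 (SE), with edgeR adjusted p of 0.513, 0.202 and 0.271. Ttk, a checkpoint kinase at the kinetochore, was at 1.96 to 10.2 CPM and was also called in no state, and its log2 fold change in Siglec F-low cells was -0.86 ± 0.27 (SE, edgeR adjusted p = 0.0583) with 22 libraries.

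Of the 3 genes of protein destruction, 0, 3 and 1 were called lower with 24 libraries, and 1, 1 and 3 with 22. Cdc20 activates the anaphase-promoting complex. It was at 15, 13.6, 12.3 and 10.4 CPM in young naive, 21.5, 17.8, 12.6 and 16.5 in young asbestos Siglec F-high and 21, 17.6, 19.2 and 16.3 in young asbestos Siglec F-low libraries. In the old groups Cdc20 was at 10.1, 9.93, 8.51 and 6.81, 10.5, 9.90, 13.1 and 10.6 and 10.8, 10.2, 14 and 9.06 CPM. The ages were apart except in the Siglec F-high sort, where the outlying young library (12.6) lay below the outlying old one (13.1). Cdc20 fell there, with a log2 fold change of -0.68 ± 0.18 (SE, edgeR adjusted p = 0.0331), and of -0.75 ± 0.17 (SE, edgeR adjusted p = 0.0267) in Siglec F-low cells. Ube2c, the enzyme that attaches ubiquitin for the same complex, was at 12.6, 17.2, 11.7 and 8.73 CPM in young naive and 8.80, 9.82, 8.51 and 7.34 in old naive libraries. After asbestos it was at 18.9, 14.2, 98.8 and 15.5 CPM in young and 10.6, 12.8, 3.27 and 9.90 in old asbestos Siglec F-high libraries. Its log2 fold change in that sort was -1.85 ± 0.46 (SE, edgeR adjusted p = 0.0239) with 24 libraries and -0.53 ± 0.19 (SE, edgeR adjusted p = 0.107) with 22, so its call rested on the outlying pair. In Siglec F-low cells Ube2c was at 20.9, 20.8, 17 and 18.2 CPM in young and 9.44, 7.56, 12 and 11.6 in old libraries, which did not overlap, with a log2 fold change of -0.92 ± 0.44 (SE, edgeR adjusted p = 0.608) and, with 22 libraries, -0.91 ± 0.17 (SE, edgeR adjusted p = 0.0013).

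Of the 7 kinesins, 2, 4 and 4 were called lower with 24 libraries, and 6, 7 and 7 with 22. Kif11 (ENSMUSG00000012443, chromosome 19, 37376403 to 37421859) is the motor that pushes the spindle poles apart. Young libraries held 26.2, 22.3, 24.2 and 24.7 CPM of Kif11 when naive, 38.1, 29.4, 37.4 and 31.9 in the asbestos Siglec F-high and 32.9, 34, 31.5 and 29.5 in the Siglec F-low sort. Old libraries held 16.8, 17.6, 15.8 and 18.2, 20.7, 20.04, 23.7 and 20.2 and 16.3, 16.6, 23.3 and 17 CPM. The ages did not overlap in any state, and the highest old library, 23.7 CPM, was the outlying one. Kif11 fell, with a log2 fold change of -0.51 ± 0.12 (SE, edgeR adjusted p = 0.0201) in naive cells, of -0.71 ± 0.12 (SE, edgeR adjusted p = 0.00118) in the asbestos Siglec F-high sort and of -0.81 ± 0.12 (SE, edgeR adjusted p = 0.00061) in the Siglec F-low sort.

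Kif23 (ENSMUSG00000032254, chromosome 9, 61915905 to 61946774) is a motor of the central spindle. It was at 53.2, 48.7, 51.7 and 52.6 CPM in young naive, 57.4, 52.7, 62.2 and 52.9 in young asbestos Siglec F-high and 47.8, 37.8, 50.6 and 44.4 in young asbestos Siglec F-low libraries. The old values of Kif23 were 42, 30.2, 34 and 29.9, 31.6, 36.8, 22.9 and 32.6 and 23.1, 23.3, 30.5 and 27.9 CPM, below the young in each state. It fell, with a log2 fold change of -0.60 ± 0.13 (SE, edgeR adjusted p = 0.0152), -0.83 ± 0.14 (SE, edgeR adjusted p = 0.000885) and -0.79 ± 0.14 (SE, edgeR adjusted p = 0.00256) in the 3 states. Kif2c, which takes microtubules apart at the centromere, fell in both asbestos sorts, with a log2 fold change of -0.83 ± 0.20 (SE, edgeR adjusted p = 0.0187) in the Siglec F-high and -0.82 ± 0.19 (SE, edgeR adjusted p = 0.0293) in the Siglec F-low sort. Kif15, a second motor that pushes the poles apart, fell in the same sorts, with a log2 fold change of -1.04 and -1.0 (edgeR adjusted p = 0.0127 and 0.0248). In the Siglec F-high sort the outlying young library held 39.2 CPM of Kif15, and the others of its group 15 to 20. With 22 libraries all 7 kinesins lay between -0.73 and -0.54 in that sort. Kif20a, Kif20b and Kif4, motors of the spindle midzone and the chromosome arms, were called with 22 libraries alone. Their log2 fold changes in Siglec F-low cells were -0.77, -0.47 and -0.72 (edgeR adjusted p = 0.000185, 0.0156 and 0.00104).

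Of the 7 centromere and kinetochore genes, 1, 4 and 4 were called lower with 24 libraries, and 3, 5 and 7 with 22. Cenpe (ENSMUSG00000045328, chromosome 3, 135212537 to 135273611) is the kinetochore motor that carries chromosomes to the spindle equator. In young libraries Cenpe was at 25.1, 18.2, 19.3 and 22.5 CPM when naive, 28.1, 28.4, 28.9 and 26.8 in the asbestos Siglec F-high and 25.8, 19.4, 23.4 and 22.9 in the Siglec F-low sort. In old libraries it was at 13.3, 14.4, 15.9 and 13.1, 18.6, 15.2, 26.9 and 18.1 and 14.9, 11.5, 17 and 15.5 CPM. The ages were apart in naive and Siglec F-low cells, and in the Siglec F-high sort the outlying old library, at 26.9 CPM, reached the young. Cenpe fell, with a log2 fold change of -0.59 ± 0.15 (SE, edgeR adjusted p = 0.0377), -0.57 ± 0.15 (SE, edgeR adjusted p = 0.0339) and -0.64 ± 0.15 (SE, edgeR adjusted p = 0.0306) in the 3 states.

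Ndc80, which with Nuf2, Spc24 and Spc25 forms the complex that grips microtubules, was at 9.06, 7.07, 9.52 and 7.91 CPM in young naive and 7.69, 5.78, 6.52 and 5.92 in old naive libraries, which overlapped. After asbestos Ndc80 was at 12.4, 9.84, 9.67 and 11.9 in young and 7.29, 5.74, 7.35 and 7.13 in old Siglec F-high libraries, and at 12.7, 11.6, 9.56 and 11.5 and 5.74, 6.33, 6.96 and 6.20 in Siglec F-low libraries, and neither pair of groups overlapped. It fell, with a log2 fold change of -0.69 ± 0.15 (SE, edgeR adjusted p = 0.0118) and -0.85 ± 0.15 (SE, edgeR adjusted p = 0.00256) in the 2 sorts. All 4 subunits of that complex were called lower in Siglec F-low cells with 22 libraries, with log2 fold changes of -0.84, -0.82, -0.82 and -0.73 for Ndc80, Nuf2, Spc24 and Spc25 (edgeR adjusted p = 0.000263, 0.00505, 0.0252 and 0.00358). Cenpa, the histone that marks the centromere, fell in the asbestos Siglec F-high sort, with a log2 fold change of -0.94 ± 0.24 (SE, edgeR adjusted p = 0.0264), a value that was -0.41 with 22 libraries (edgeR adjusted p = 0.0473). Cenpf, a large kinetochore protein, fell in Siglec F-low cells, with a log2 fold change of -0.82 ± 0.18 (SE, edgeR adjusted p = 0.0232).

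Of the 5 genes of spindle assembly, 0, 1 and 3 were called lower with 24 libraries, and 2, 5 and 5 with 22. Tpx2 activates Aurora A at the spindle. It was at 32.9, 31.6, 27.1 and 25.9 CPM in young naive and 24.9, 25.6, 26.9 and 26 in old naive libraries, which overlapped. After asbestos Tpx2 was at 43.6, 38.9, 14.2 and 41.7 in young and 30.9, 31.7, 26.1 and 30.6 in old Siglec F-high libraries, and at 44.2, 35.4, 40.1 and 40.4 and 29.2, 24.6, 29.9 and 27.1 in the Siglec F-low sort. The Siglec F-low groups were apart, and the Siglec F-high groups overlapped through the outlying young library, at 14.2 CPM. Tpx2 had a log2 fold change of -0.53 ± 0.21 (SE, edgeR adjusted p = 0.367) in Siglec F-low cells, and of -0.52 ± 0.08 (SE, edgeR adjusted p = 0.000314) with 22 libraries. Prc1, which bundles the microtubules of the midzone, was at 26.4, 22.1, 25 and 26.2, 33.6, 31.8, 10.4 and 32.2 and 33.7, 27.1, 33.2 and 31.7 CPM in young naive, asbestos Siglec F-high and Siglec F-low libraries and at 20.4, 18.2, 17 and 15.7, 19.7, 23.5, 15.5 and 21.5 and 16.3, 19.3, 21.3 and 17.6 in the old ones. It was apart in naive and Siglec F-low cells and was called with 22 libraries alone, where its log2 fold change in the latter was -0.75 ± 0.10 (SE, edgeR adjusted p = 3.12e-05).

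Hmmr, a microtubule-binding protein that is also a hyaluronan receptor, was at 17.3, 16, 19.7 and 16.2 CPM in young and 10.4, 9.65, 11.8 and 10.2 in old Siglec F-low libraries, and at 18.2, 15.1, 15.1 and 14.5 and 9.34, 11.4, 9.80 and 8.44 in the asbestos Siglec F-high sort. Neither pair overlapped, and Hmmr fell in both, with a log2 fold change of -0.72 ± 0.15 (SE, edgeR adjusted p = 0.0121) and -0.69 ± 0.15 (SE, edgeR adjusted p = 0.0123). Nusap1, which crosslinks spindle microtubules, had the lowest log2 fold change of Siglec F-low cells, -1.10 ± 0.23 (SE, edgeR adjusted p = 0.0135). Ckap2l, a spindle protein, fell there, with a log2 fold change of -0.74 ± 0.15 (SE, edgeR adjusted p = 0.013).

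The 3 cytokinesis genes had small errors. With 24 libraries 1, 2 and 3 of them were called lower, and with 22 libraries all 3 in each state. Anln (ENSMUSG00000036777, chromosome 9, 22332012 to 22389188) encodes anillin, the scaffold of the contractile ring. Young libraries held 68.6, 76.7, 68.5 and 65.8 CPM of Anln when naive, 66.8, 61.8, 51.5 and 68.5 in the asbestos Siglec F-high and 50.5, 48.8, 53.2 and 47.6 in the Siglec F-low sort. Old libraries held 52.7, 48.8, 50.8 and 43.3, 42.1, 44.4, 47.4 and 41.7 and 29.7, 31.3, 37.5 and 33.5 CPM. The ages did not overlap in any state. Anln fell, with a log2 fold change of -0.52 ± 0.10 (SE, edgeR adjusted p = 0.00502), -0.51 ± 0.10 (SE, edgeR adjusted p = 0.00614) and -0.60 ± 0.10 (SE, edgeR adjusted p = 0.00253) in the 3 states. Racgap1, the partner of Kif23 at the central spindle, fell, with a log2 fold change of -0.43 ± 0.11 (SE, edgeR adjusted p = 0.0213) in the asbestos Siglec F-high and -0.55 ± 0.10 (SE, edgeR adjusted p = 0.00495) in the Siglec F-low sort. Ect2, the exchange factor that switches on RhoA at the cleavage furrow, fell in Siglec F-low cells, with a log2 fold change of -0.66 ± 0.16 (SE, edgeR adjusted p = 0.0423).

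Foxm1, the transcription factor of the group, was at 18.7, 13.7, 18.8 and 17.9 CPM in young naive and 10.5, 11.7, 12.4 and 11.7 in old naive libraries, which did not overlap. After asbestos Foxm1 was at 25.1, 22.5, 2.90 and 22.2 in young and 14.5, 12, 18 and 13.4 in old Siglec F-high libraries, and at 20.1, 17.6, 25.3 and 21.7 and 11.2, 12.4, 16.7 and 12.6 in Siglec F-low libraries. The outlying young library held 2.90 CPM where the others of its group held 22.2 to 25.1. Foxm1 was not called with 24 libraries, where its log2 fold change was -0.58 ± 0.34 (SE, edgeR adjusted p = 0.801), -0.39 ± 0.35 (SE, edgeR adjusted p = 0.495) and -0.68 ± 0.34 (SE, edgeR adjusted p = 0.648) in the 3 states. It was called lower in all 3 with 22 libraries, with a log2 fold change of -0.58 ± 0.13 (SE, edgeR adjusted p = 0.0056), -0.80 ± 0.15 (SE, edgeR adjusted p = 0.00139) and -0.67 ± 0.13 (SE, edgeR adjusted p = 0.00168).

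Across the 40 members, the log2 fold changes with age in different states correlated weakly to moderately. With 22 libraries Pearson's r was 0.525 between naive and asbestos Siglec F-high cells, 0.374 between naive and Siglec F-low cells and 0.437 between the asbestos sorts. With 24 libraries it was 0.311, 0.374 and 0.347 in that order. These states share no library, but genes are not independent replicates and share depth. Bub1b had the value nearest to 0 in each of the 3 states, in both fits.

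Exposure was compared next, asbestos against naive in Siglec F-high cells of each age. In young mice 38 of the 40 members had a log2 fold change above 0 with 24 libraries and 39 with 22, with a median of 0.41 and 0.42. With any 1 library left out, 1 to 8 members were below 0. EdgeR called 5 higher and 0 lower with 24 libraries (background 1.43% and 0.475%) and 12 higher and 0 lower with 22 (3.48% and 1.58%). It called 0 without the filter on low counts and 0 when only the groups compared were fitted, though the share of all genes called is not given for these fits. The groups did not overlap, with asbestos higher, for 11 members (3.71%) with 24 and 22 members (9.24%) with 22 libraries. The 5 were Ccna2, Hmmr, Kif2c, Plk1 and Kif11, and all 5 were called with 22 libraries too. With 22 libraries Mki67, Cdc20, Kif20a, Tpx2, Prc1, Nusap1 and Racgap1 were also called.

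Ccna2 rose from 24.8, 17.7, 22.3 and 20.5 CPM in young naive to 37.1, 26.8, 40.7 and 28.1 in young asbestos libraries, which did not overlap, with a log2 fold change of 0.63 ± 0.14 (SE, edgeR adjusted p = 0.0202). Kif2c went from 8.49, 7.38, 8.41 and 7.10 CPM to 15.7, 11.4, 17.7 and 10.6 and did not overlap either, with a log2 fold change of 0.82 ± 0.19 (SE, edgeR adjusted p = 0.0253). Hmmr went from 12.5, 9.42, 8.21 and 10.1 to 18.2, 15.1, 15.1 and 14.5 CPM, with a log2 fold change of 0.64 ± 0.15 (SE, edgeR adjusted p = 0.0225). Plk1 went from 15.1, 11.8, 8.99 and 9.43 to 21.6, 14.4, 20.9 and 18.1 CPM, with an overlap of naive replicate 1 and asbestos replicate 2, and rose, with a log2 fold change of 0.73 ± 0.17 (SE, edgeR adjusted p = 0.028). Kif11 rose, with a log2 fold change of 0.49 ± 0.12 (SE, edgeR adjusted p = 0.0321). The count of 5 was 0 without young naive replicate 2, 3 or 4, 1 without young asbestos replicate 1, 13 without replicate 2 or 4 and 9 without replicate 3. Ube2c and Birc5 had the highest values with 24 libraries, 1.54 ± 0.44 (SE, edgeR adjusted p = 0.0742) and 1.46 ± 0.40 (SE, edgeR adjusted p = 0.0643), which were 0.37 and 0.40 with 22 (edgeR adjusted p = 0.276 and 0.231). Anln had the lowest log2 fold change in both fits, -0.17 ± 0.10 (SE, edgeR adjusted p = 0.366) and, with 22 libraries, -0.09 ± 0.08 (SE, edgeR adjusted p = 0.624). It was 1 of 2 members below 0 with 24 libraries and the only 1 with 22.

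In old mice 37 of 40 members had a log2 fold change above 0 after asbestos in either fit, with a median of 0.27 and 0.26. EdgeR called 0 members with 24 libraries (background 0.713% higher and 0.0668% lower), with a smallest adjusted p of 0.142. An unadjusted p under 0.05 was found for 11 members. The share of all genes at that level is not given, here or below, so such counts cannot be set against it. DESeq2 called 1 and limma voom 4. With 22 libraries edgeR called 3 higher (3.16%) and 0 lower (0.969%). The 3 were Ccnb1, Kif2c and Ccna2. Their log2 fold changes were 0.78 ± 0.17 (SE, edgeR adjusted p = 0.0115), 0.66 ± 0.15 (SE, edgeR adjusted p = 0.0142) and 0.45 ± 0.13 (SE, edgeR adjusted p = 0.0491) in that order. Leaving the outlying young library out of the 24 gave a count of 1. The groups did not overlap, with asbestos higher, for 7 members (3.86%) with 24 and 17 members (9.58%) with 22 libraries. Kif2c was at 5.07, 5.39, 5.86 and 5.03 CPM in old naive and 8.74, 8.49, 3.27 and 8.08 in old asbestos libraries, where only the outlying library, at 3.27, lay below the naive range. Anln, Kif23 and Aurka were the 3 members below 0, with log2 fold changes of -0.19, -0.01 and -0.15 with 22 libraries (edgeR adjusted p = 0.224, 0.975 and 0.641).

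Whether the response to asbestos differed with age was tested as an interaction. EdgeR called 0 of 40 members with 24 libraries and 0 with 22, where it called 0% and 0.0147% of all genes. The smallest adjusted p were 0.587 and 0.971, and 3 and 0 members had an unadjusted p under 0.05. DESeq2 and limma voom called 0 as well. The 3 were Birc5, Aurka and Cdca8, with a difference in log2 fold change of -1.35 ± 0.58, -0.79 ± 0.35 and -0.51 ± 0.24 (SE) with 24 libraries. The median difference of the response, old less young, was -0.12 and -0.14, with single members between -1.35 (Birc5) and 0.33 (Mki67) with 24 libraries and between -0.38 (Ndc80) and 0.23 (Ccnb1) with 22. The median SE of such a difference was 0.28 and 0.20. The responses of young and old correlated across members at 0.713 with 22 libraries and 0.131 with 24. These 2 responses share no library.

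**Figure D5:**
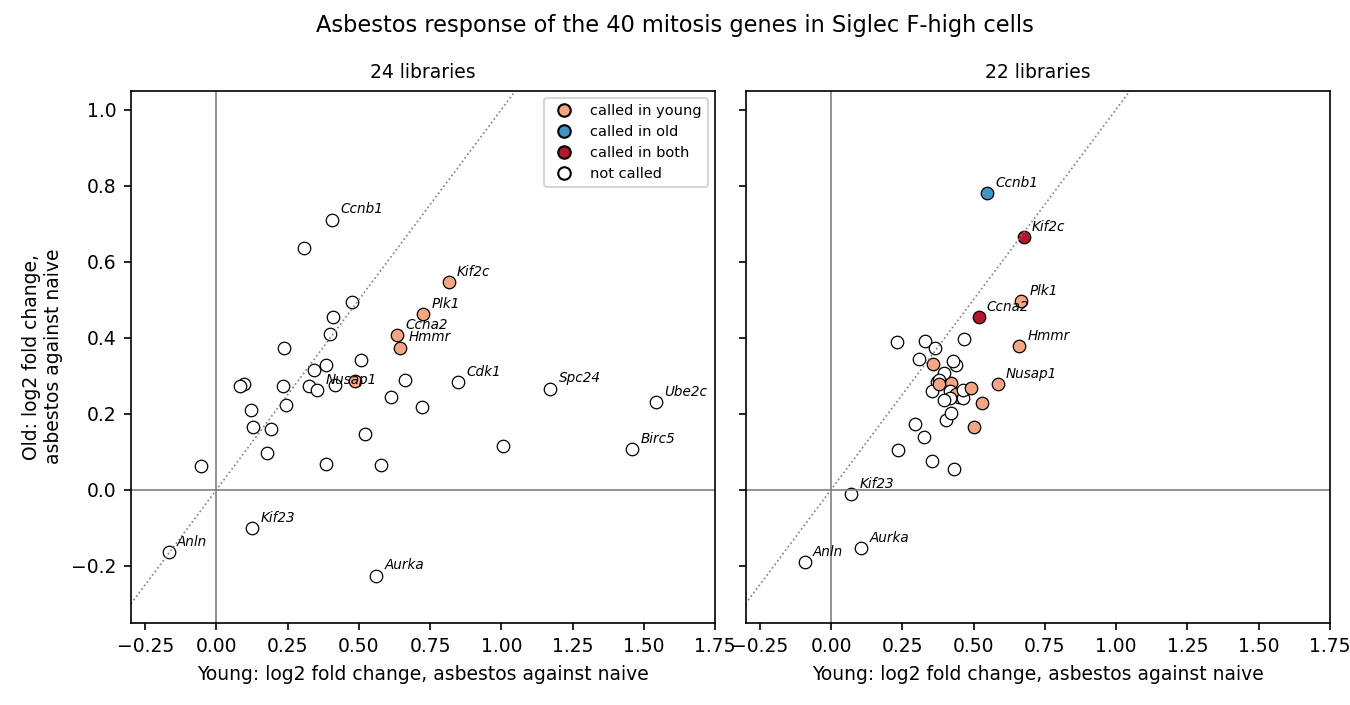
Log2 fold change of each mitosis gene, asbestos against naive Siglec F-high cells, in young mice (x axis) and old mice (y axis), with 24 libraries (left) and 22 (right); the dotted line marks equal values and the fill shows where edgeR called the gene. Most points lie above 0 on both axes, Anln is below 0 on both, and Ube2c (1.54 in young), Birc5 and Spc24 lie far to the right only on the left.

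The Siglec F-low and F-high sorts were compared after asbestos. In young mice the median member differed by -0.02 (low against high) with 24 libraries and by 0.01 with 22, and in old mice by -0.08 and -0.12. In young mice edgeR called 0 members with 24 libraries (background 1.58% lower and 3.41% higher), with 6 at an unadjusted p under 0.05 and a smallest adjusted p of 0.0801. DESeq2 called 1 and limma voom 2 there. With 22 libraries it called Anln lower and no member higher (background 4.60% and 7.42%). In old mice it called Anln lower with 24 libraries (1.66%, and 2.64% higher) and Anln and Kif23 lower with 22 (5.28%, and 6.30% higher). With a list this short, 1 or 2 calls are near those shares at either age. These counts therefore do not set the members apart from all genes, and the values of Anln and Kif23 below describe single genes.

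Anln was at 66.8, 61.8, 51.5 and 68.5 CPM in young Siglec F-high and 50.5, 48.8, 53.2 and 47.6 in young Siglec F-low libraries, which overlapped through the outlying library. The log2 fold change between these sorts was -0.31 ± 0.10 (SE, edgeR adjusted p = 0.0801), and -0.39 ± 0.08 (SE, edgeR adjusted p = 0.002) with 22 libraries. In old mice it was at 42.1, 44.4, 47.4 and 41.7 and 29.7, 31.3, 37.5 and 33.5 CPM, which did not overlap, and was lower in the Siglec F-low sort, with a log2 fold change of -0.40 ± 0.10 (SE, edgeR adjusted p = 0.0278), and -0.38 ± 0.08 (SE, edgeR adjusted p = 0.00362) with 22 libraries. The log2 fold change of Kif23 between the sorts of old mice was -0.28 ± 0.14 (SE, edgeR adjusted p = 0.346) with 24 and -0.37 ± 0.12 (SE, edgeR adjusted p = 0.0446) with 22 libraries. Markers of monocyte-derived macrophages moved with the sort, at 1230 to 1815 CPM in young Siglec F-high and 4220 to 6775 in young Siglec F-low libraries, and at 2057 to 2245 and 5851 to 6058 in the old ones (22 libraries). In the young sorts mean Spp1 was 685 and 3389 CPM, mean Mmp12 56.2 and 587, and mean Cd14 560 and 607. Sums of resident alveolar macrophage markers, mostly Chil3, were also higher in the Siglec F-low sort. They were 22270 to 26030 and 34110 to 45750 CPM in young, and 34060 to 38910 and 50200 to 64270 in old libraries. With 24 libraries Chil3 was called higher there, and Siglecf, Fabp1, Ear1 and Il18 lower, at both ages. The part of either list in the values of the mitosis genes was not tested.

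Whether the difference between the sorts changed with age was also tested. EdgeR called 0 of 40 members in either fit (background 0% and 0.0147%), with 0 at an unadjusted p under 0.05 in both and smallest adjusted p of 0.761 and 0.839. DESeq2 and limma voom called 0. The median was -0.09 and -0.12, with a range of -0.65 (Nuf2) to 0.93 (Ube2c) with 24 libraries and of -0.42 (Nusap1) to 0.19 (Plk1) with 22.

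Other genes of division were read from lists that hold none of the 40. Of 80 further mitosis genes (condensins, more kinetochore and spindle genes), edgeR called 0, 11 and 6 lower in old in the 3 states with 24 libraries and 0, 1 and 0 higher. In naive cells 30 of them had an unadjusted p under 0.05 (share of all genes not given), DESeq2 called 5 lower and limma voom 24. With 22 libraries edgeR called 23, 24 and 41 lower and 2, 1 and 1 higher. The shares of all genes with 24 libraries were 0.349%, 1.87% and 0.423% lower and 1.68%, 2.89% and 0.869% higher. With 22 they were 2.91%, 2.47% and 3.41% lower and 5.11%, 4.84% and 3.80% higher. The medians of the 80 genes were -0.38, -0.46 and -0.56 with 24 libraries. Aspm, which shapes spindle poles, fell in Siglec F-low cells, with a log2 fold change of -0.97 ± 0.22 (SE, edgeR adjusted p = 0.0227). With 24 libraries the exception in direction was Hjurp, the chaperone that loads Cenpa, which was higher in old asbestos Siglec F-high cells, with a log2 fold change of 1.31 ± 0.27 (SE, edgeR adjusted p = 0.00609). With 22 libraries Hjurp was called higher in all 3 states, with log2 fold changes of 0.61, 0.84 and 0.92 (edgeR adjusted p = 0.0486, 0.0208 and 0.00376), while Cenpa itself was called lower in all 3.

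Of 53 genes of DNA replication and nucleotide supply, 1, 6 and 2 were called lower with 24 libraries, and 5, 11 and 26 with 22. The shares of all genes called lower were 0.349%, 1.87% and 0.423% with 24 libraries, and 2.91%, 2.47% and 3.41% with 22. Fen1, a nuclease that trims Okazaki fragments, was the 1 of the 53 called higher, in naive cells with 22 libraries (5.11% of all genes). The medians of the 53 genes, -0.23, -0.30 and -0.43, were nearer to 0 than those of the 40 members. Rrm2, a subunit of ribonucleotide reductase, fell in all 3 states, with a log2 fold change of -0.78, -0.64 and -0.87 (edgeR adjusted p = 0.0163, 0.0423 and 0.0107). Of 20 tested genes of the G1 to S transition, 1, 1 and 2 were called lower with 24 libraries and 5 in each state with 22. A single call in a list this short says little beside the same shares. E2f8, a repressor of the E2F family that is itself transcribed in S phase, fell, with a log2 fold change of -0.86 in naive and -0.91 in Siglec F-low cells (edgeR adjusted p = 0.0121 and 0.0127).

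Of 16 inhibitors of the cycle, edgeR called 0, 1 and 0 lower in old in the 3 states with 24 libraries and 3, 0 and 0 higher, where the shares of all genes were 0.349%, 1.87% and 0.423% lower and 1.68%, 2.89% and 0.869% higher. With 22 libraries it called 2, 1 and 1 lower (2.91%, 2.47% and 3.41%) and 3 higher in each state (5.11%, 4.84% and 3.80%). Their medians were near 0, at -0.01, -0.04 and 0.01 with 24 libraries. In old naive cells Cdkn2a, which encodes p16 and p19Arf, was higher, with a log2 fold change of 2.77 ± 0.56 (SE, edgeR adjusted p = 0.00583) and Cdkn2b, which encodes p15, of 1.83 ± 0.48 (SE, edgeR adjusted p = 0.0471). With 22 libraries both were called higher in all 3 states. Cdkn2c, which encodes p18, went the other way and fell in the asbestos Siglec F-high sort, with a log2 fold change of -0.75 ± 0.17 (SE, edgeR adjusted p = 0.0146), and was called lower in all 3 states with 22 libraries. Cdkn1b, which encodes p27, was called lower in naive cells with 22 libraries, at -0.48 ± 0.12 (SE, edgeR adjusted p = 0.0115). Cdkn1a, which encodes p21, had a log2 fold change of -0.10, -0.06 and 0.05 with 22 libraries (edgeR adjusted p = 0.776, 0.906 and 0.908). Markers of monocyte-derived macrophages summed to 891 to 1170 CPM in young naive and 1050 to 1702 in old naive libraries. Resident alveolar macrophage markers, mostly Chil3, summed to 14010 to 19460 and 15520 to 17960 CPM in these groups.

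Genes of the complexes named in the background were read from 2 lists, whose counts are set beside the shares of all genes called lower (0.349%, 1.87% and 0.423% with 24 libraries; 2.91%, 2.47% and 3.41% with 22). With lists this short, 0 or 1 call is near those shares. Of 13 genes of MuvB and DREAM, edgeR called 0 in each of the 3 states with 24 libraries, with 0, 2 and 1 at an unadjusted p under 0.05. DESeq2 called 0, 0 and 1 of them and limma voom 1, 0 and 2. With 22 libraries edgeR called 1, Rbbp4, a histone-binding subunit, lower in Siglec F-low cells with a log2 fold change of -0.31 ± 0.08 (SE, edgeR adjusted p = 0.017). Mybl2, which encodes B-Myb, had a log2 fold change there of -0.54 ± 0.18 (SE, edgeR adjusted p = 0.0748). Of 16 subunits and regulators of the anaphase-promoting complex, edgeR called 0 with 24 libraries, with 1, 3 and 1 at an unadjusted p under 0.05. DESeq2 called 0, 1 and 0 of these and limma voom 1, 2 and 1. With 22 libraries Fbxo5, which encodes its inhibitor Emi1, was called lower in all 3 states, with log2 fold changes of -0.73, -0.74 and -0.70 (edgeR adjusted p = 0.00563, 0.0176 and 0.0104). The subunit Cdc23 was called lower in the asbestos Siglec F-high sort, with a log2 fold change of -0.27 ± 0.08 (SE, edgeR adjusted p = 0.0424), but its exons share bases with those of Kif20a.

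After the 40, the genes whose log2 CPM followed the members' median most closely over the 22 libraries were Iqgap3 (Pearson's r 0.965), Neil3 (0.947), Pclaf (0.942), Cdca5 (0.937), Rrm2 (0.933), Kif22 (0.931), Kifc1 (0.93) and Stmn1 (0.929). Pclaf binds the replication clamp PCNA, and Kif22 and Kifc1 are further mitotic kinesins. Over 24 libraries Melk (0.919) and Pclaf (0.901) led. The genes that ran most against the members were Mfsd6 (-0.905), Zfp697 (-0.891), Cd209b (-0.869) and Esrrg (-0.865) over 22 libraries, and the same 4 over 24 libraries. Once the group means were removed, r was 0.668 for Iqgap3, 0.814 for Rrm2, -0.714 for Mfsd6 and -0.257 for Cd209b with 22 libraries.

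Levels of markers of other cells are given by age. Epithelial markers, most of it Epcam and Cdh1, summed to 173 to 273 CPM in young naive and 281 to 385 in old naive libraries, to 202 to 247 and 263 to 355 in the asbestos Siglec F-high sort, and to 166 to 243 and 236 to 328 in the Siglec F-low sort (22 libraries). Krt8 and Krt18 averaged at most 0.24 CPM in any group. In Siglec F-low cells mean Sftpc was 17.1 CPM in young and 6.20 in old, and mean Sftpb 3.72 and 1.49. Scgb1a1 went the other way in the asbestos Siglec F-high sort, at 3.70 and 15.2 CPM. Jchain, a plasma cell gene, averaged 11.4 CPM in young and 18.2 in old naive cells, 3.75 and 16.8 in the asbestos Siglec F-high sort and 2.84 and 13.9 in the Siglec F-low sort. Mean Siglecf was 534 and 499.9 CPM in young and old naive cells, 456 and 466 in the asbestos Siglec F-high sort and 265 and 173 in the Siglec F-low sort. Whether these RNAs came from other cells was not tested, nor was the part of such cells in the values of the mitosis genes.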

How the data were processed

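RNA of sorted alveolar macrophages was measured by poly(A) RNA-seq (NEBNext Ultra kit, 30 ng of RNA) in 24 libraries. The authors deposited 1 table of raw counts per Ensembl gene, in whole numbers and without scaling. Per the submitters' processing notes, bcl2fastq 2.19.1, FastQC, Trimmomatic 0.36, STAR 2.6.0 and HTSeq 0.11.2 were used with the mm10 build. The sources used here did not give the annotation or the strand setting.

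Symbols were found for 42462 of 43430 gene IDs. The filter of edgeR 4.0.16 (filterByExpr, minimum count 10 and minimum total 15) kept 13467 genes. They were scaled by TMM, and 1 quasi-likelihood fit of all libraries, with a coefficient for each group, was made under R 4.3.3. Quasi-likelihood F tests gave the 7 comparisons of groups and the 2 interactions, with Benjamini-Hochberg adjustment across all tested genes and calls at an adjusted p under 0.05. SE were taken as the size of the log2 fold change over the root of F. CPM are TMM-scaled, and correlations used log2 CPM with a prior count of 2. The fit of 22 libraries tested 13629 genes. Libraries of 1 group differed by at least 3.54 in chi-square per degree of freedom, over 36 pairs, so none was counted as a copy of another. Alternatives were DESeq2 1.42.0, limma 3.58.1 (voom with quality weights), RLE scaling, no filter, only the groups compared, a replicate block and leaving out each library.

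The members and all gene lists were chosen with earlier results of these data known. Values in every library are given for 18 members that cover each role and for called members of smallest p, and others by fold change. The 8 most like and 4 least like genes were named by correlation with the members' median. Gene positions are from GENCODE M21 on GRCm38. Some genes of the lists are not reported here.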

Additional observations from a re-analysis of the deposited data

Results flagged for a closer look

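In 11 of 114 groups of 4 libraries examined, for 18 members that cover each role and for the summed level of the 40, 1 library stood apart from the other 3 by Dixon's criterion, which chance meets in about 1 group of 20. Of the 11, 7 were on the outlying libraries. In young asbestos Siglec F-high replicate 3, Cdk1 stood at 62.0 CPM (18.9 to 25.7 in the others) and Ube2c at 98.8 (14.2 to 18.9). The same library was low for Tpx2, at 14.2 CPM (38.9 to 43.6), for Prc1, at 10.4 (31.8 to 33.6), and for Foxm1, at 2.90 (22.2 to 25.1). Old asbestos Siglec F-high replicate 3 was high for Mki67, at 203 CPM (83.7 to 99.3), and low for Bub1b, at 69.4 (79 to 80.1). The other 4 were on libraries of usual depth. Aurkb was at 15.8 CPM in young naive replicate 4 (18.8 to 19 in the others) and Foxm1 at 13.7 in young naive replicate 2 (17.9 to 18.8). Ndc80 was at 5.74 CPM in old asbestos Siglec F-high replicate 2 (7.13 to 7.35), and Kif11 at 23.3 in old asbestos Siglec F-low replicate 3 (16.3 to 17).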

How the results depend on the processing

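The direction of the age differences held for all or nearly all members. Under the 8 alternatives 39 to 40 of 40 members were below 0 in the asbestos Siglec F-high sort and 40 in the other states. With any 1 library left out 38 to 40 were below 0 in that sort. Of 49 named calls 0 reversed. The numbers called moved with several settings. Old against young in naive cells, 5 members were called, and 9 with DESeq2, 24 with limma voom, 1 without the filter, 24 with 22 libraries and 20 with only the groups compared. In the asbestos Siglec F-high sort, 21 became 36 with limma voom and 0 with only the groups compared. In the Siglec F-low sort, 17 became 37 with limma voom, 11 without the filter, 36 with 22 libraries and 36 with only the groups compared. For asbestos against naive in young mice, 5 became 13 with DESeq2, 30 with limma voom, 0 without the filter, 12 with 22 libraries and 0 with only the groups compared. In old mice, 0 became 1 with DESeq2, 4 with limma voom and 3 with 22 libraries. For Siglec F-low against F-high, 0 in young mice became 1 with DESeq2, 2 with limma voom and 1 with 22 libraries, and 1 in old mice became 3 with limma voom, 0 without the filter, 2 with 22 libraries and 0 with only the groups compared. With each library left out in turn the counts ranged from 1 to 22, 8 to 25 and 7 to 36 for age, from 0 to 13 and 0 to 1 for asbestos in young and old, from 0 to 1 between the sorts at either age, and stayed at 0 for both interactions. The cause of these shifts was not tested. Shares of all genes called are given only for the edgeR fits of 24 and 22 libraries. Counts under the other settings, here and above, therefore cannot be set against such a share.

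Of 49 calls, 46 were kept with RLE scaling, 49 with limma voom, 44 with 22 libraries, 30 without the filter and 22 with only the groups compared, and 48 of 48 with DESeq2. The mean summed level was 1036 CPM in young naive, 729 in old naive and 669 in old asbestos Siglec F-high libraries without TMM scaling, and 709 in old naive libraries with factors from 22 libraries. The 12 young libraries stayed above the 12 old ones without TMM scaling.

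The labels gave no link between libraries of the same number. Between the asbestos sorts 1 animal could have given both libraries. Same-numbered ones correlated in their deviations at -0.18 to 0.245 in young and 0.0733 to 0.186 in old mice. The -0.18 was that of replicate 3, which held the outlying young library. Without the outlying libraries the values were 0.0854 to 0.319 and 0.15 to 0.205. Not every pair was above 0.1 in either set. Values for libraries of different number are not given, so these cannot show whether a number marks an animal. With the replicate block the counts were 6, 18 and 17 for age, 6 and 0 for asbestos and 0 and 1 between the sorts. With the replicate block and 22 libraries they were 25, 34 and 36 for age, 17 and 4 for asbestos and 1 and 2 between the sorts, and 0 for both interactions in either fit. The depth limits the low members most, since a member had 30 to 3121 counts in a library of the 22, and 12 members had fewer than 10 in the shallowest library.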
